A study of Bos taurus with 16 samples.

Results

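Real-time PCR reports the level of a transcript relative to a reference gene, so the reference has to be readily detected and vary little between samples. The bovine embryo libraries examined here were made for a study that used GAPDH, a glycolytic enzyme, as that reference. Other genes often used for the purpose were therefore looked up by name in the gene counts: ACTB, ACTG1, YWHAZ, PPIA, H2AFZ, SDHA, HPRT1 and TBP. Of these 8 symbols, 5 matched at least 1 row and together gave 6 loci of the 22358 in the files, because PPIA named 2 loci. SDHA, a subunit of succinate dehydrogenase, HPRT1, a purine salvage enzyme, and TBP, the TATA-binding protein, matched no row by name and were not analysed here.

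The embryos came from lactating Holstein cows fed a control diet or a methionine-rich diet, in which rumen-protected methionine was added to the same basal ration from calving until the uterus was flushed. Each diet was represented by 4 cows and each cow by 2 pools of blastocysts, which gave 16 libraries of linearly amplified RNA. Pools are named below by diet (C, control, or M, methionine-rich), cow and pool, so that C4.2 is the second pool of cow 4. The sample labels call the tissue IVF embryos, whereas the study's methods describe insemination of the cows and flushing of the uterus. Methionine-rich pools held more blastocysts on average, so pool size and diet are partly confounded. By the study's listing C4.1, C4.2 and M8.2 each held a single blastocyst, though they are called pools here. The 2 pools of a cow share their dam and are not independent.

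Total counts ran from 5624126 to 7826542 in 15 of the pools, and C3.2 had 1745048. C3.2 was left out of the comparisons, following the study's methods, and its values are given separately. This leaves 7 control and 8 methionine-rich pools. Keratin KRT18 was counted at 1757 CPM or more and the pluripotency factor POU5F1 at 11.2 CPM or more in all 16 pools, where CPM is a locus's count over the total count of its pool, scaled so that each pool sums to 1000000. Of the other blastocyst markers looked up, the trophectoderm factors CDX2 and ELF5 were counted in 12 and 7 of the 16 pools, and the hypoblast factor SOX17 in none. The 9 leukocyte genes matched summed to 2294 CPM in C2.1 and to at most 31.6 CPM in any other pool. In C2.1 the sum was mostly LAPTM5 (1239 CPM), NKG7 (480 CPM), TYROBP (377 CPM) and LCP1 (183 CPM). The list did not move as a whole: CD3E was at 0 in every pool, and the pan-leukocyte PTPRC and FCER1G peaked elsewhere, at 6.68 CPM in M8.1 and 1.08 CPM in M8.2.

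Reference genes are usually chosen from basic functions that every cell performs. The cytoplasmic actins ACTB and ACTG1 build the cytoskeleton, which carries cell shape, division and the compaction of the early embryo. PPIA, or cyclophilin A, helps proteins fold by turning proline bonds, YWHAZ is a 14-3-3 adaptor that binds phosphorylated proteins, and H2AFZ is a histone variant placed at promoters. A reference gene for PCR need not be abundant, but its differences between samples pass directly into every gene normalised to it.

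Of the 6 loci, 5 were counted abundantly in every pool, and YWHAZ was close to the counting floor. The coefficient of variation (CV, the SD over the mean of CPM) of ACTB over 15 pools was 24.9%, with a jackknife SE over pools of 5.46. It was 26.7% (SE 4.79) for PPIA at locus XLOC_016633, 32.3% (SE 4.68) for H2AFZ, 37.5% (SE 13.2) for ACTG1 and 37.9% (SE 9.01) for PPIA at locus XLOC_001020. These 5 values differ by little more than their errors, so their order is not settled, whereas YWHAZ stood apart at 118% (SE 26.4). The jackknife leaves out each pool in turn and takes pools as independent, although pools of a cow share their dam, so these SEs are approximate. On means per cow, where averaging of pools narrows the spread, the CV of ACTB was 14.5% and that of ACTG1 23.8%. Among the 10519 loci with a summed CPM of at least 15, the median CV was 80.3%, and the 5 candidate loci that met this limit all lay below it. Low CV goes with high counts in such data, so the 1410 loci with a mean of at least 100 CPM are the closer comparison, and there the median CV was 41.4%. Within that set ACTB stood at percentile 7.02, PPIA XLOC_016633 at 9.86, H2AFZ at 24.0, ACTG1 at 40.0 and PPIA XLOC_001020 at 40.8. CPM is not divided by transcript length, so it does not rank the candidates by abundance.

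**Figure D1:**
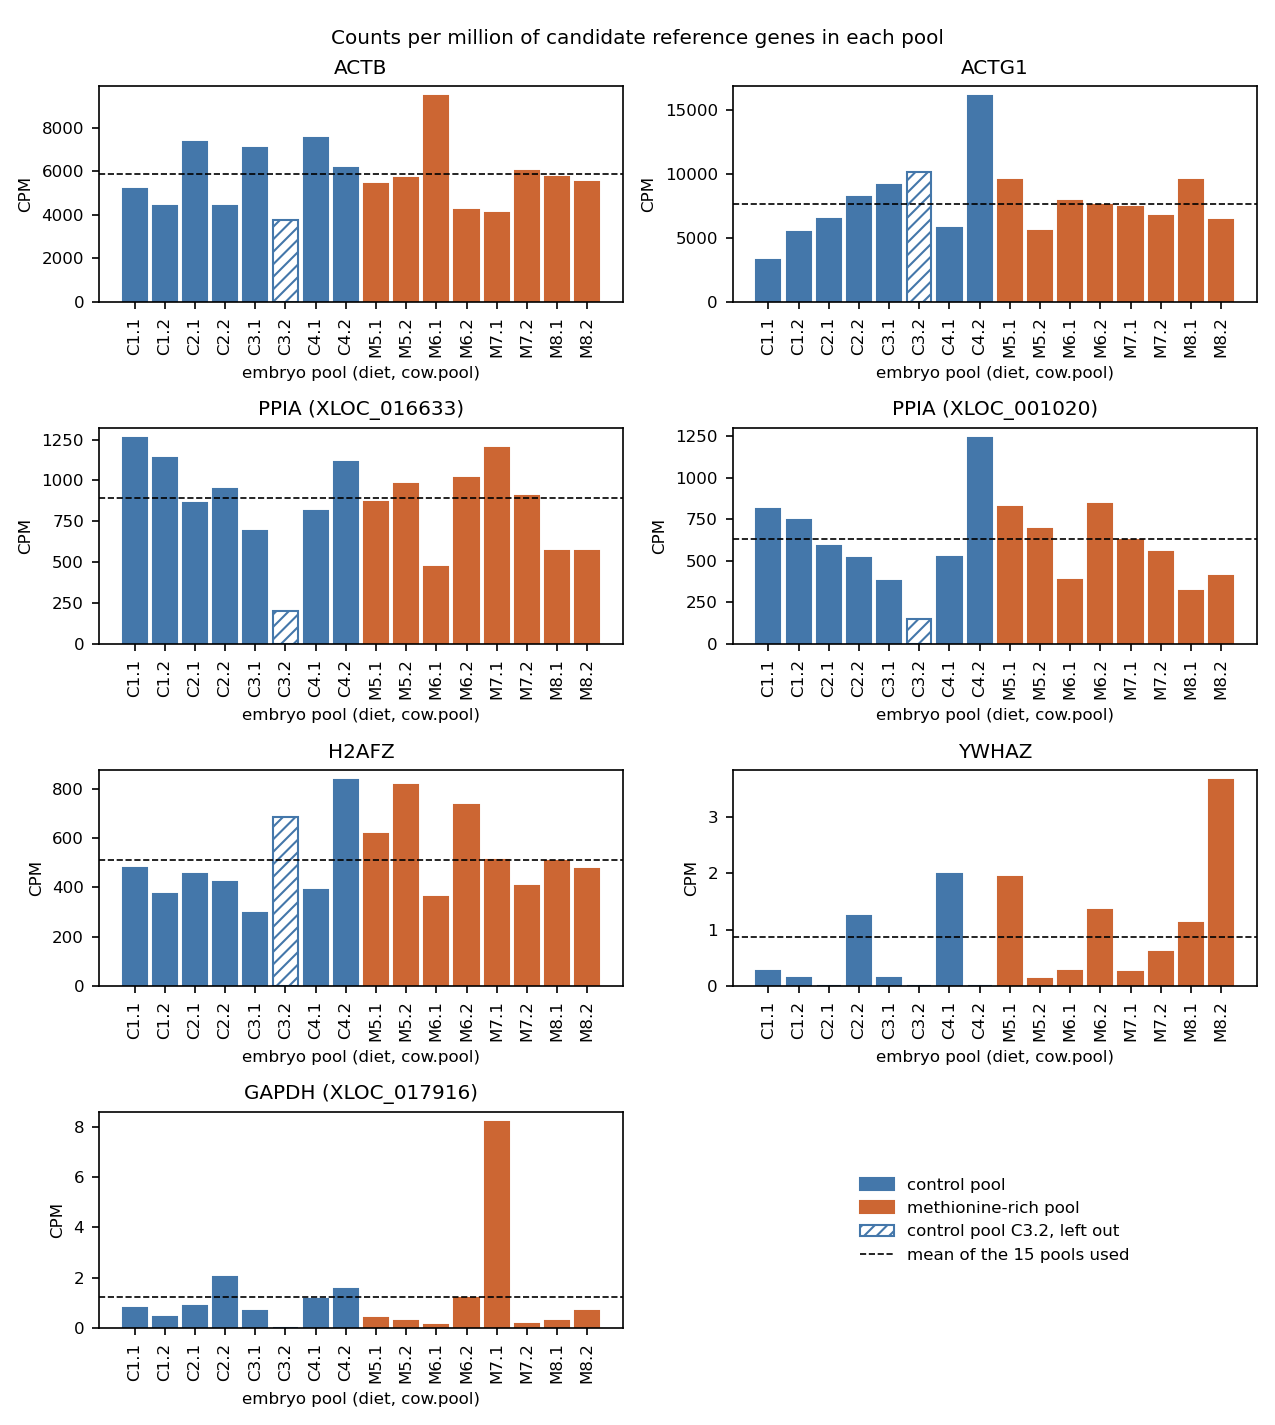
CPM (vertical axes, each starting at 0) in each of 16 embryo pools for the 6 candidate loci and GAPDH XLOC_017916. Bars are single pools without error bars, hatching marks C3.2, and dashed lines give the mean of the 15 pools used. ACTG1, PPIA XLOC_001020 and H2AFZ peaked in C4.2, ACTB peaked in M6.1, and YWHAZ and GAPDH stayed below 10 CPM.

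ACTB, at locus XLOC_012802, encodes beta-actin. It ranged in control pools from 4419 CPM in C1.2 through a median of 6142 to 7543 in C4.1. In methionine-rich pools the lowest value was 4065 CPM in M7.1, the median 5589 and the highest 9444 in M6.1. The groups overlapped, and M6.1 alone stood well above the remaining pools. The highest pool had 2.32 times the CPM of the lowest, or 1.22 on the log2 scale. Counts per pool ran from 25190 to 69312. Without M6.1 the CV was 20.0%. The SD of log2(CPM + 1) was 0.41 for single pools within cows and 0.21 between the means of cows. Averaging pools narrows the spread of cow means, so these SDs do not show whether pools or cows differed more.

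ACTG1, at locus XLOC_008331, encodes gamma-actin, which differs from beta-actin by only a few residues near the start of the protein. Control pools ran from 3321 CPM in C1.1, with a median of 6473, to 16089 CPM in C4.2. Methionine-rich pools ran from 5588 CPM in M5.2, with a median of 7501, to 9575 CPM in M5.1. All 8 methionine-rich values therefore fell inside the control range. The CV was 52.9% in control pools and 18.7% in methionine-rich pools, and this difference was not tested. It rested largely on 1 pool, since the control CV was 32.6% without C4.2. Over the 14 pools other than C4.2 the CV of ACTG1 was 24.9% and that of ACTB 25.9%, so which actin varied less turned on this pool. Over the 15 pools the extremes differed 4.85-fold, the widest span of the 5 loci counted abundantly.

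The actins did not track each other. The ratio of ACTB to ACTG1 counts ran from 0.382 in C4.2 to 1.57 in C1.1, a 4.10-fold span with an SD of 0.58 on the log2 scale. Spearman's rho of their CPM over 15 pools was 0.16. Of the 5 other actin genes, which are mainly those of muscle, all matched a locus. ACTBL2 had no count in any pool, and the highest value of the remaining 4 was 8.35 CPM, for ACTA2 in one pool. Actin genes are close copies of each other, and the study reports its exon counts as uniquely mapped reads. Reads that fit several copies equally would have been dropped, so the division between actin loci is uncertain.

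PPIA is the abundant cytosolic cyclophilin, and the files name 2 loci for it. PPIA XLOC_016633 ran in control pools from 689 CPM in C3.1 through a median of 947 to 1258 in C1.1. In methionine-rich pools it ran from 471 CPM in M6.1 through a median of 888 to 1196 in M7.1. Both pools of cow 8 were low, at 569 and 567 CPM, and the groups overlapped over most of their range. PPIA XLOC_001020 had a control minimum of 379 CPM in C3.1, a median of 587 and a maximum of 1236 in C4.2. Its methionine-rich minimum was 321 CPM in M8.1, its median 587 and its maximum 839 in M6.2, again inside or next to the control range.

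The PPIA loci moved together more closely than any other pair of the 5. The ratio of XLOC_001020 to XLOC_016633 lay between 0.521 and 1.11 with an SD of 0.31 on the log2 scale, and Spearman's rho was 0.77 over 15 pools, or 0.74 without C4.2 and M6.1. PPIA has many processed copies in mammalian genomes, and which locus is the parent gene cannot be told from the symbol. The study reports its exon counts as uniquely mapped reads, so reads fitting both loci equally would have been dropped. Of the 12 other cyclophilins looked up, 11 matched and 10 met the limit on CPM. Their CV ran from 39.1% for PPIL1 to 90.5% for PPWD1, so each had a larger CV than either PPIA locus. PPIB, the cyclophilin of the endoplasmic reticulum, had a mean of 23.9 ± 13.0 CPM (SD, n = 15) and a CV of 54.4%.

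H2AFZ, at locus XLOC_018101, encodes H2A.Z, the histone H2A variant of active and poised promoters. Control pools ran from 298 CPM in C3.1, with a median of 421, to 834 CPM in C4.2. Methionine-rich pools ran from 362 CPM in M6.1, with a median of 508, to 815 CPM in M5.2. The 6 other control pools lay at or below 479 CPM, and C4.2 was the highest of all 15. The control CV was 37.4%, and 16.0% without C4.2. Among 5 further H2A genes, CV ran from 29.8% for H2AFX, the variant phosphorylated at DNA breaks, to 131% for H2AFY2. H2AFV, the close paralog of H2AFZ, had a CV of 42.2%.

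YWHAZ, at locus XLOC_004150, had between 0 and 27 counts per pool. It was counted in 13 of 16 pools and reached 3 counts in 7. No count was seen in C2.1, C4.2 or C3.2, which allows levels of up to 0.533, 0.386 and 1.72 CPM respectively. Its median was 0.150 CPM in control and 0.861 CPM in methionine-rich pools, and the highest value was 3.65 CPM in M8.2. Its summed CPM of 13.1 was below the limit of 15, so it did not enter the test between diets. Sampling of reads alone would give a CV of 40.8% at this depth, so part of its 118% is counting error. Intervals and floors of this kind cover counting error only, because the RNA was amplified before sequencing.

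Other 14-3-3 genes were well counted. All 6 looked up matched and met the limit, with CV from 21.5% to 96.0%. YWHAB had a mean of 408 ± 87.8 CPM (SD, n = 15) and a CV of 21.5%, below that of ACTB, and ranged from 279 to 596 CPM. YWHAE averaged 1163 ± 748 CPM (SD, n = 15) with a CV of 64.3%, and YWHAQ, at 6.05 ± 5.81 CPM (SD, n = 15), had the highest CV of the family at 96.0%.

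GAPDH, the reference of the study, was named at 2 loci, and both were near the floor. GAPDH XLOC_017457 had 0 to 5 counts per pool and reached 3 counts in 5 of 16 pools. GAPDH XLOC_017916 reached 3 counts in 11 of 16. Its control pools ran from 0.450 CPM through a median of 0.889 to 2.01 CPM. Its methionine-rich pools ran from 0.136 CPM through a median of 0.346 to 8.18 CPM. One pool, M7.1, held 64 counts, and the next highest methionine-rich pool held 7. The CV of GAPDH XLOC_017916 was 159%, at percentile 80.6 of all loci tested, and 73.2% without M7.1. The edgeR exact test gave it a log2 fold change of 0.59 (methionine-rich over control) and DESeq2 one of -1.21 ± 0.79 (SE), so its direction was not settled (FDR 1 in the edgeR exact test). The study gives stable expression in all its sequenced samples as its reason for choosing GAPDH. Such stability was not seen in the counts at XLOC_017916, where sampling of reads alone would give a CV of 33.2% at a mean that includes M7.1. Its CV was 50.6% in control pools and 196% in methionine-rich pools, which include M7.1. The median was 5 counts per pool, so stability can be judged only poorly at this locus too. At XLOC_017457 the CV was 82.6%, and sampling of reads alone would give 70.7%, so its counts were too few to judge stability. As at the PPIA loci, reads fitting both GAPDH loci equally would have been dropped, and whether this lowered the counts was not tested. The GAPDH counts describe the libraries at the named loci and were not compared with any PCR measurement.

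**Figure D2:**
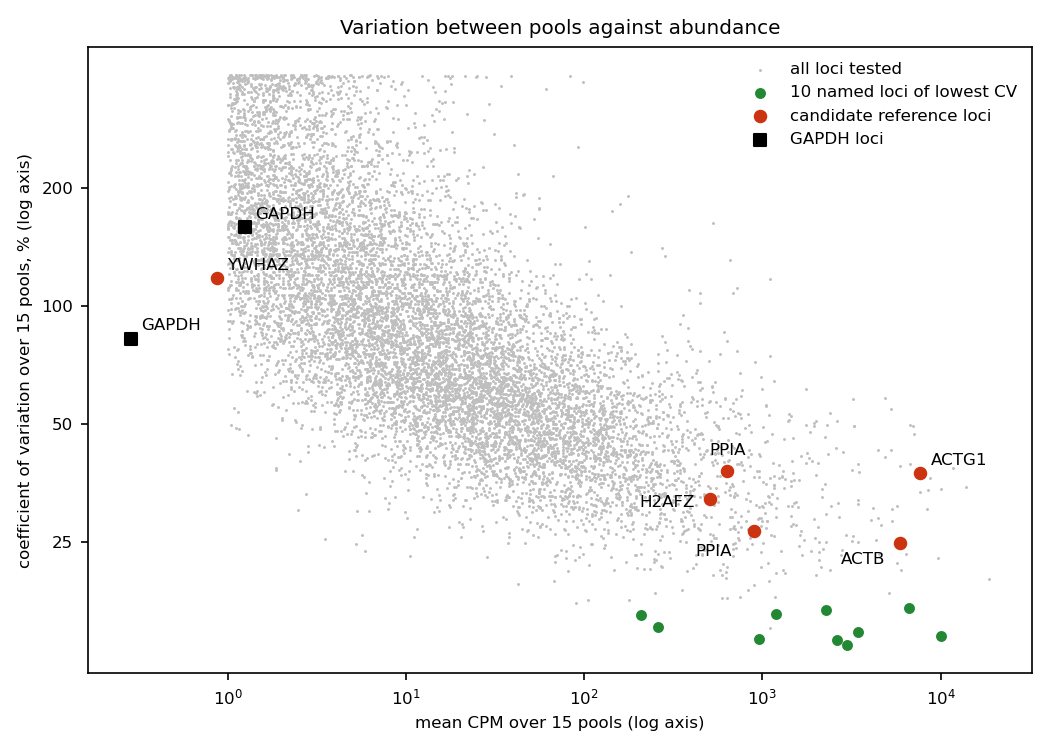
Coefficient of variation of CPM over 15 pools, in percent, against mean CPM, both on log axes. Grey points are the 10519 loci tested, red points the 6 candidate loci, black squares GAPDH and green points the 10 named loci of lowest CV. The 5 abundantly counted candidates lie below the median CV of 80.3%, and YWHAZ and GAPDH lie at the low end of abundance.

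Of the 3 symbols that matched no row, close relatives could be measured. For succinate dehydrogenase, the complex that links the citric acid cycle to respiration, 4 of 5 genes looked up matched. The iron-sulfur subunit SDHB had a mean of 111 ± 27.5 CPM (SD, n = 15) and a CV of 24.7%, next to ACTB, and the membrane anchor SDHC had a CV of 37.0%. For purine salvage, 5 of 6 matched, and CV ran from 37.1% for PNP to 103% for APRT among the 4 tested. For TBP, all 16 partners looked up matched, and the 14 tested had CV from 33.7% for TAF10, a TFIID subunit, to 169% for TAF8. Like the actins, 14-3-3 genes, cyclophilins and H2A genes above, none of the loci tested in these 3 lists was called between diets by the edgeR exact test described below. It called 1.05% of all loci, so none or nearly none would be called in lists of this size at that share.

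A further 40 genes used as PCR references in the literature on mammalian tissues were looked up, and 36 matched 37 loci. The limit on CPM was met by 35 loci, with a median CV of 41.8%, and 34 of the 35 were below the median of all loci. The lowest CV belonged to the ribosomal protein gene RPL19 at XLOC_008168 (23.9%, 471 ± 112 CPM, SD, n = 15). RPL19 at XLOC_019891 (26.1%), RPL32 (27.2%), the proteasome subunit PSMB4 (29.8%) and the prefoldin-like UXT (30.2%) followed. RPL19 XLOC_008168 was the only one of the 35 below ACTB. B2M, the light chain of MHC class I, had the highest CV at 163%: it reached 3579 CPM in C2.1, the pool with the high LAPTM5 and NKG7, and at most 735 CPM elsewhere. Without C2.1 its CV was 60.9%. Among the candidates, ACTB in C2.1 ranked 3 of 15 at 7328 CPM, while ACTG1, both PPIA loci and H2AFZ ranked from 8 to 10.

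Whether diet moved the candidates was asked with the edgeR exact test over all 10519 loci, where a call needed a difference of 2-fold or more and a false discovery rate (FDR) below 0.10. None of the 5 candidates tested was called, against 110 of all loci (1.05%). In none did the control and methionine-rich pools fail to overlap, against 5 of all loci (0.0475%). At such shares none or nearly none of 5 loci would be found, so these counts do not show that diet left the candidates unmoved. The quasi-likelihood test of edgeR called 0% of all loci and none of the candidates. At an unadjusted p under 0.05 it held 909 loci and none of the candidates, and DESeq2 called 67 loci and none of the candidates. The median log2 fold change was -0.09 over the 5 candidates and -0.05 over all loci. All 3 of these tests ignore that pools came in pairs from the same dam.

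Fold changes were small beside the spread between pools. ACTB averaged 6015 ± 1347 CPM in control (SD, n = 7) and 5763 ± 1648 CPM in methionine-rich pools (SD, n = 8), a log2 fold change of -0.09 with FDR 1 in the edgeR exact test. ACTG1 averaged 7797 ± 4124 and 7592 ± 1418 CPM, a log2 fold change of -0.03 whose sign turned in 8 of the alternative fits. PPIA averaged 685 ± 283 and 581 ± 198 CPM at XLOC_001020 (log2 fold change -0.27) and 975 ± 203 and 822 ± 257 CPM at XLOC_016633 (-0.25). H2AFZ was the only one of the 5 with a higher mean after the methionine-rich diet, at 464 ± 173 and 553 ± 157 CPM, a log2 fold change of 0.25. The lowest FDR of the 5 in the edgeR exact test was 0.994, for PPIA XLOC_001020. In bulk pools, fewer cells carrying a transcript and less of it per cell cannot be told apart.

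Because cows are the independent units, means of log2(CPM + 1) per cow were also compared by a two-sided exact permutation test over the 70 ways of dividing 8 cows, whose smallest possible p is 0.0286. ACTB differed by -0.11 between diets (methionine-rich minus control, exact permutation p = 0.514), and shifts from -0.51 to 0.40 were not refused at 0.05. For ACTG1 the difference was 0.04 (exact permutation p = 0.914), with an interval of -0.45 to 0.88. For PPIA it was -0.13 with an interval of -1.14 to 0.99 at XLOC_001020 and -0.23 with an interval of -1.07 to 0.59 at XLOC_016633. H2AFZ differed by 0.34 (exact permutation p = 0.229), with an interval of -0.32 to 1.24. For YWHAZ the difference was 0.50 (exact permutation p = 0.114), with an interval of -0.28 to 1.46. At its mean of 0.871 CPM the added 1 compresses this scale, so 0.50 is not a log2 fold change. Without the filter on counts, the edgeR exact test gave YWHAZ a log2 fold change of 1.13 (edgeR exact test p = 0.369). With 4 cows per diet, a 2-fold fall (-1 on the log2 scale) lay inside the interval for both PPIA loci and a 2-fold rise inside that for H2AFZ, whereas the intervals of ACTB and ACTG1 held neither.

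**Figure D3:**
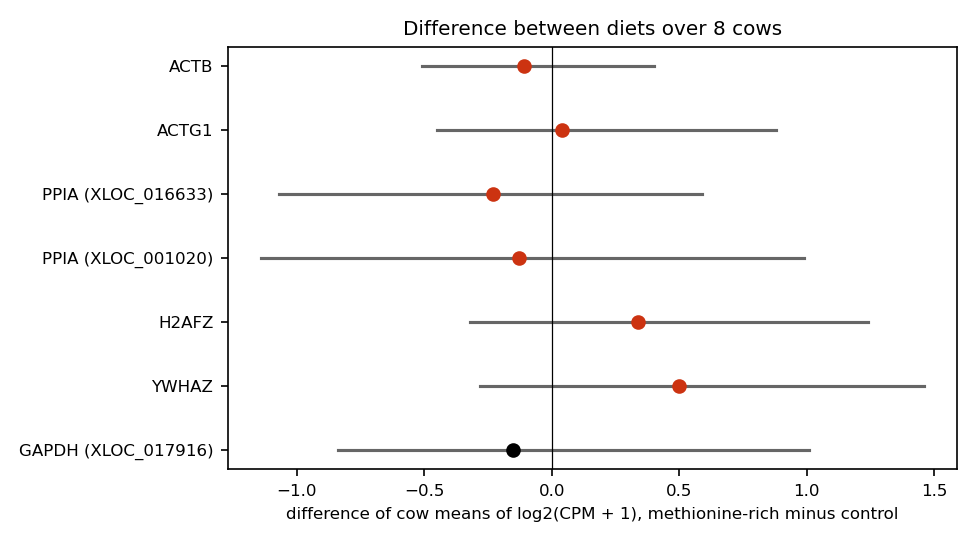
Difference between diets in the mean of log2(CPM + 1) over 4 cows each, methionine-rich minus control (horizontal axis), for the 6 candidate loci and GAPDH XLOC_017916. Points are the differences and lines span the shifts that the exact permutation test does not refuse at 0.05. Every line crosses 0, and that of ACTB is the shortest, from -0.51 to 0.40. For YWHAZ and GAPDH, near the counting floor, the 1 added to CPM compresses the differences.

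A measure that does not use the pool total is the pairwise stability M, the mean SD over pools of the log2 ratio of a gene to each other candidate, where lower is steadier. With all 5 genes, and the more abundantly counted PPIA locus, M was 0.82 for H2AFZ, 0.87 for ACTB and ACTG1, 0.90 for PPIA and 1.61 for YWHAZ. The jackknife SE over pools, which again takes pools as independent, was 0.07 for H2AFZ, 0.08 for ACTB and PPIA, 0.11 for ACTG1 and 0.25 for YWHAZ. The 4 lower values lay within about 1 SE of each other. Ratios to YWHAZ raised every value. Without YWHAZ, an alternative added after its counts were seen, M was 0.56 for H2AFZ, 0.63 for ACTG1 and PPIA and 0.64 for ACTB. The 3 upper values lay within 0.01 of each other. On means per cow, with all 5 genes, M was 0.53 for ACTB, 0.55 for H2AFZ, 0.57 for ACTG1, 0.69 for PPIA and 0.95 for YWHAZ, so the order changed. M thus depends on the genes and on the unit averaged, and the candidates other than YWHAZ were not separated by it.

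The candidates did not share a common pattern over the pools. PPIA XLOC_001020 and H2AFZ had a log2 ratio SD of 0.41 and a Spearman's rho of 0.64 over 15 pools, or 0.49 without C4.2 and M6.1. ACTB and PPIA XLOC_016633 ran in opposite directions, with a rho of -0.67, or -0.70 without those pools, and a count ratio from 3.40 in M7.1 to 20.0 in M6.1. M6.1 had the highest ACTB of all pools and the lowest PPIA XLOC_016633. The relative level of any transcript in M6.1 against M7.1 would differ 5.89-fold between these 2 references. C4.2, which held a single blastocyst, had the highest ACTG1, PPIA XLOC_001020 and H2AFZ. It also had the highest sum in 5 of the 7 marker lists: trophectoderm (9127 CPM), inner cell mass (115 CPM), hypoblast (157 CPM), cumulus and granulosa (69.0 CPM) and endometrial and oviduct epithelium (30.5 CPM). The hypoblast sum was nearly all GATA6 (157 CPM), and that of endometrial and oviduct epithelium nearly all SLPI XLOC_003919 (30.5 CPM). Other members peaked in other pools: KRT18, TEAD4, CDX2 and ELF5 of the trophectoderm list, and NANOG, SOX2 and LIN28B of the inner cell mass list. So did GATA4, OVGP1, MUC1, FSHR and AMH. No single cell type therefore stood out in C4.2, and the part of these genes in the values was not tested. All CPM of a pool share its total, so these correlations are a description.

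**Figure D4:**
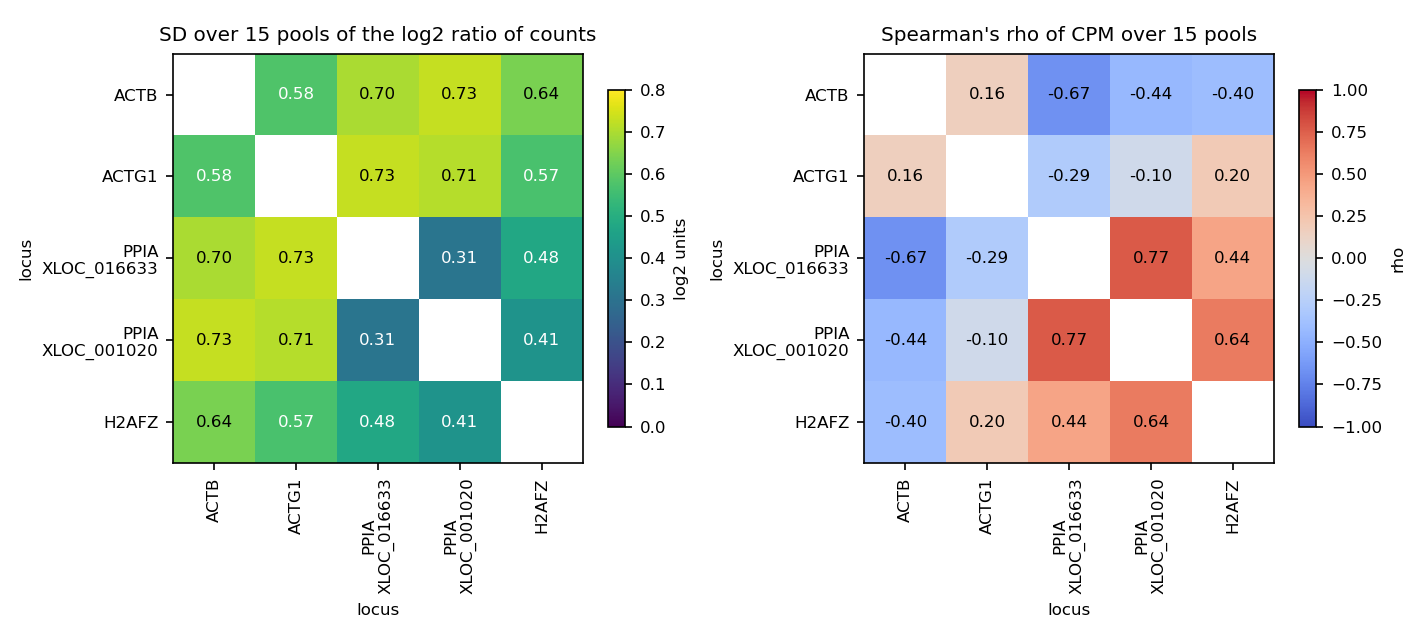
Left, SD over 15 pools of the log2 ratio of counts for each pair of the 5 abundantly counted loci. Right, Spearman's rho of CPM for the same pairs over 15 pools. The PPIA loci form the pair with the lowest SD (0.31) and the highest rho (0.77), and ACTB with PPIA XLOC_016633 has the lowest rho (-0.67).

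Spread within cows and between cow means was also taken for the other abundantly counted candidates. The SD of log2(CPM + 1) within the 7 cows with 2 pools was 0.52 for ACTG1, 0.47 for PPIA XLOC_001020, 0.43 for H2AFZ and 0.34 for PPIA XLOC_016633. Between cow means it was 0.38, 0.47, 0.34 and 0.36 in the same order. The first SD is for single pools and the second for averages of pools, which vary less, so they are not on the same scale. They were not tested against each other.

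The pool left out, C3.2, had the lowest total count over loci. The authors traced this to a small share of its mapped reads falling in exons and named an error in making the library as possible, so its values are those of a doubtful library and no check of stability. ACTB (3760 CPM) and both PPIA loci (148 CPM at XLOC_001020 and 202 CPM at XLOC_016633) lay below the range of the other control pools. ACTG1 (10168 CPM) and H2AFZ (685 CPM) lay inside it. Over all 16 pools the CV was 26.3% for ACTB, 31.7% for H2AFZ, 33.9% for PPIA XLOC_016633, 36.4% for ACTG1 and 43.4% for PPIA XLOC_001020.

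The loci whose CPM followed each candidate most closely over the 15 pools, by Spearman's rho against 10518 others, differed between the candidates. For ACTB they were RCN2 (0.93), ANKRD17 (0.93) and PDCD4 (0.80), and for ACTG1 IREB2 (0.84), MDH2 (0.83) and GNB1 (0.83). For PPIA XLOC_001020 they were ODF2L (0.89), ASF1A (0.86) and WDR3 (0.86), and for PPIA XLOC_016633 ACYP1 (0.86), MCPH1 (0.84) and CTAGE5 (0.84). For H2AFZ they were RACGAP1 (0.92), NCBP2 (0.85) and COQ7 (0.83). These are the highest of many correlations and were chosen for being so.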

How the data were processed

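Amplified RNA of 16 blastocyst pools was sequenced on an Illumina HiSeq. The authors aligned reads to bosTau7 with TopHat 2.0.4, assembled transcripts with Cufflinks 2.0.2 and counted reads per locus with htseq-count (version not given in the sources used here); the deposited values are raw counts per gene. The 22552 rows were reduced to 22358 loci, since 182 loci stood under several names. CPM used the total of each pool, and the CV was calculated from CPM. Amplification from the poly(A) tail favours 3′ ends, so counts depend on how each locus covers that end, which was not tested. As in the study, C3.2 was left out and loci with a summed CPM of at least 15 over 15 pools were tested with the exact test of edgeR 4.0.16 (R 4.3.3) after TMM normalization, which scales pools to a common typical locus. FDR was Benjamini-Hochberg over all 10519 loci. The study, with an older edgeR, tested somewhat more genes and called a larger share of them, so its calls are not reproduced here. edgeR's quasi-likelihood test, DESeq2 1.42.0, limma 3.58.1 (voom), other scalings and filters, and leaving out each cow were alternatives. The tests on counts were run on simulated counts with independent pools and less spread between pools than in these data. That run checks the code and not how the tests behave here. Cow means were compared with log2(CPM + 1) and M with 1 count added. The genes named are the candidates, GAPDH, fixed families of each candidate, the 10 named loci of lowest CV, the 3 loci most like each candidate, and those of other PCR reference genes with the 5 lowest CV. The candidates and lists were chosen with earlier results of these data known. Sire and sequencing lane were not analysed here.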

Additional observations from a re-analysis of the deposited data

Results flagged for a closer look

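Each group of 7 or 8 pools was searched for a highest or lowest pool set apart from the rest, by its gap to the nearest pool over the range of the group, at Dixon's critical value. The limit was passed in 3 of 16 groups, where chance would give about 1 in 20 for normal values and independent groups. CPM need not be normal, the groups share the same pools, and YWHAZ and GAPDH were near the counting floor. The 1 in 20 is therefore only a rough guide. ACTB in M6.1 was at 9444 CPM against 6005 CPM in the next methionine-rich pool (gap over range 0.639). H2AFZ in C4.2 was at 834 CPM against 479 CPM in the next control pool (0.664). GAPDH XLOC_017916 in M7.1 was at 8.18 CPM against 1.18 CPM in the next methionine-rich pool (0.87). ACTG1 in C4.2, at 16089 CPM, fell short of the limit (0.541 against 0.568).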

How the results depend on the processing

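No candidate was called in any of 24 alternative settings, while calls over all loci ran from 0 to 356 against 110. The highest was with C3.2 included. None was made by any quasi-likelihood fit, by voom with cow as a random effect or with at least 10 counts in every pool, where 262 to 1009 loci had an unadjusted p under 0.05. DESeq2 called 67, no filter on counts 55, FDR under 0.05 60, and leaving out methionine-rich cow 7 or 8 gave 66 or 62. Some settings could not have added a call: a stricter FDR only narrows the main calls. Scaling by the reference genes used the tested candidates themselves as the scale. Fits that called no locus at all say nothing particular of the candidates. At the main share of 1.05%, none or nearly none of 5 loci would be called, so these settings do not show stability. The sign of the log2 fold change turned for ACTB with blastocyst number as a covariate (0.019), for H2AFZ over all 16 pools (-0.008) and for ACTG1 in 8 fits: voom (0.069), upper quartile factors (0.044), scaling by the reference genes (0.042), blastocyst number (0.208), and without control cow 3 (0.052), control cow 4 (0.206), methionine-rich cow 5 (0.043) or methionine-rich cow 6 (0.001), a leave-one-cow-out range of -0.211 to 0.206. The CV on cow means was 14.5% for ACTB, 23.8% for ACTG1, 86.2% for YWHAZ and 25.5% for H2AFZ. For PPIA XLOC_016633 it was 33.9% over 16 pools and 31.8% after upper quartile factors. Leaving out cows or single pools gave ACTB a CV of 19.1% to 26.7%. ACTB had the lowest CV in 15 of 18 settings, ACTG1 in 2 and PPIA XLOC_016633 in 1. On cow means M was 0.53 for ACTB, 0.57 for ACTG1, 0.95 for YWHAZ, 0.69 for PPIA and 0.55 for H2AFZ. M was 1.89 for YWHAZ with 0.5 counts added and 1.05 for PPIA over 16 pools. Without YWHAZ it was 0.64 for ACTB, 0.63 for ACTG1, 0.63 for PPIA and 0.56 for H2AFZ. The causes of these shifts were not tested. The YWHAZ setting and the removal of single pools were added after seeing the data. Pool numbers are not shared between diets by origin; a replicate block on them gave log2 fold changes of -0.037 for ACTB and 0.226 for H2AFZ and changed no candidate's call. YWHAZ and GAPDH were near the counting floor, for reasons that were not tested, and 4 cows per diet limit the precision of every interval.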

Other observations

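The named loci of lowest CV over the 15 pools were picked on these values, so they carry no test. They included the histone H3.3 gene H3F3A (13.7%, 2985 ± 409 CPM, SD, n = 15), the ribosome scaffold GNB2L1 (14.1%), the methyltransferase partner TRMT112 (14.2%), RPL15 (14.4%), the ribosome biogenesis factor FCF1 (15.2%), the replication factor GINS2 (16.3%), RPS4X (16.4%), RPL13A (16.8%) and RPL11 (17.0%). RPL15, RPS4X, RPL13A and RPL11 encode ribosomal proteins, and H3F3A spanned 1.62-fold from lowest to highest pool. C3.2 was not used to choose these loci. H3F3A was at 10174 CPM there against at most 3582 CPM in the 15 pools, GINS2 at 4.58 CPM against at least 172 CPM, and TRMT112 at 128 CPM against at least 623 CPM. RPL15, at 11801 CPM in C3.2, lay inside its range of 7409 to 12015 CPM.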
